A study of Mus musculus with 6 samples.

Results

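Genes with 3 or more upstream antisense polyadenylation sites were taken from a table of mouse testis pAs (cleavage and polyadenylation sites) in order to ask how antisense transcripts from one promoter divide between a near end and a far end as the testis matures. The members were all rows marked as antisense pAs upstream of the transcription start site (TSS) in genes with at least 3 such rows, after leaving out pAs listed more than once. They were 908 genes with 3556 pAs, of 5007 genes and 8792 pAs of this kind and of 73540 pAs in all. The remaining genes held 2 such pAs (1137 genes) or 1 (2962 genes). In each gene the pAs were ordered along the antisense strand. The one closest to the promoter is called near, the last one far, and those between them middle.

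The libraries were made by 3'READS, which captures and reads the 3' ends of poly(A)+ RNA, from whole testes of FVB mice at every week from 1w to 6w after birth, with 1 library per week and no treatment or mutant allele named. These weeks span the first wave of spermatogenesis, in which germ cells pass through meiosis and become spermatids. The 1w, 2w and 3w libraries were compared as 1 set with the 4w, 5w and 6w libraries as the other, 3 against 3. The libraries of a set differ in age and no source says how many animals each one holds. Each p-value thus sets the difference between the sets against a spread within them in which age and library cannot be told apart.

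Many mammalian promoters fire in both directions. The transcript that runs away from the gene, called upstream antisense RNA (uaRNA) or PROMPT, is usually cleaved and polyadenylated soon after it starts and is then degraded by the nuclear exosome. Cleavage is set by poly(A) signals, mainly the hexamers AATAAA and ATTAAA a short way before the site. U1 snRNP bound to 5' splice site sequences holds such cleavage back, and the antisense side of promoters is known to be poor in 5' splice site sequences and rich in poly(A) signals.

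The 30 bases that lie from 35 to 6 nt before the site are printed for the 6 genes whose division of reads is described in most detail, first for the near pA and then for the pA beyond it with most reads. They are mm9 sequences read on the antisense strand, and capitals mark an AATAAA or ATTAAA hexamer.
Gabarapl1 near pA, chr6:129482525-129482554, minus strand: ggttgttgagttcttgaaaatacagaggtc
Gabarapl1 second pA, chr6:129482205-129482234, minus strand: gtgaaAATAAAatgactactaagtggtacc
Cul1 near pA, chr6:47403540-47403569, minus strand: gatgtgtgtctccctctttaatacttttca
Cul1 middle pA, chr6:47402405-47402434, minus strand: ccaacccattttgccttaatacaagtattt
Kdm3a near pA, chr6:71583134-71583163, plus strand: cATTAAAgcgcgcagaacgcggtcggtaga
Kdm3a far pA, chr6:71584082-71584111, plus strand: acagaatgttaaagATTAAAtaatgctgaa
Zpbp near pA, chr11:11362981-11363010, plus strand: taaaAATAAAttttatacaaatatatagaa
Zpbp far pA, chr11:11363610-11363639, plus strand: tatttaaATTAAAcatataccaatgtttat
Brpf3 near pA, chr17:28937354-28937383, minus strand: tttttttttttaagtaaacataaaagtttg
Brpf3 second pA, chr17:28936880-28936909, minus strand: gaaagagtagagAATAAAcatttctcacgg
Leng9 near pA, chr7:4101948-4101977, plus strand: gccacacctcataacgAATAAAgtgactcc
Leng9 far pA, chr7:4103572-4103601, plus strand: acatacttagtttaacacgcccataactgt
Of the pAs shown, Gabarapl1 and Brpf3 had a hexamer at the second only, Cul1 at neither, Kdm3a and Zpbp at both, and Leng9 at the near pA only.

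Of the 908 genes, 487 held 3 uaRNA pAs, 210 held 4, 103 held 5 and 64 held 6. The remaining genes held 7 (24 genes), 8 (11 genes) or 9 and more (9 genes), and Dlgap2, which encodes a scaffold protein of synapses, held the most, 16. The distance from the near to the far pA had a median of 1504.5 nt and ran from 63 nt in Acr, the gene of the acrosomal protease acrosin, to 85895 nt in Ankhd1. Only 3 genes spanned more than 4000 nt. Neighbouring pAs lay a median of 259.5 nt apart over 2648 gaps, and 1 gap was shorter than the 24 nt within which the authors had merged reads.

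The TSS nearest to the near pA could be taken from the mm9 annotation for 897 genes. The near pA lay a median of 493 nt from it and the far pA 2175 nt, and in 883 genes the far pA lay within 4000 nt. In genes with 2 uaRNA pAs these medians were 580 and 1565 nt, and in genes with 1 the single pA lay 864 nt from the TSS. Only 233 of the 3556 pAs, in 73 genes, fell inside another annotated gene on the antisense strand.

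**Figure D1:**
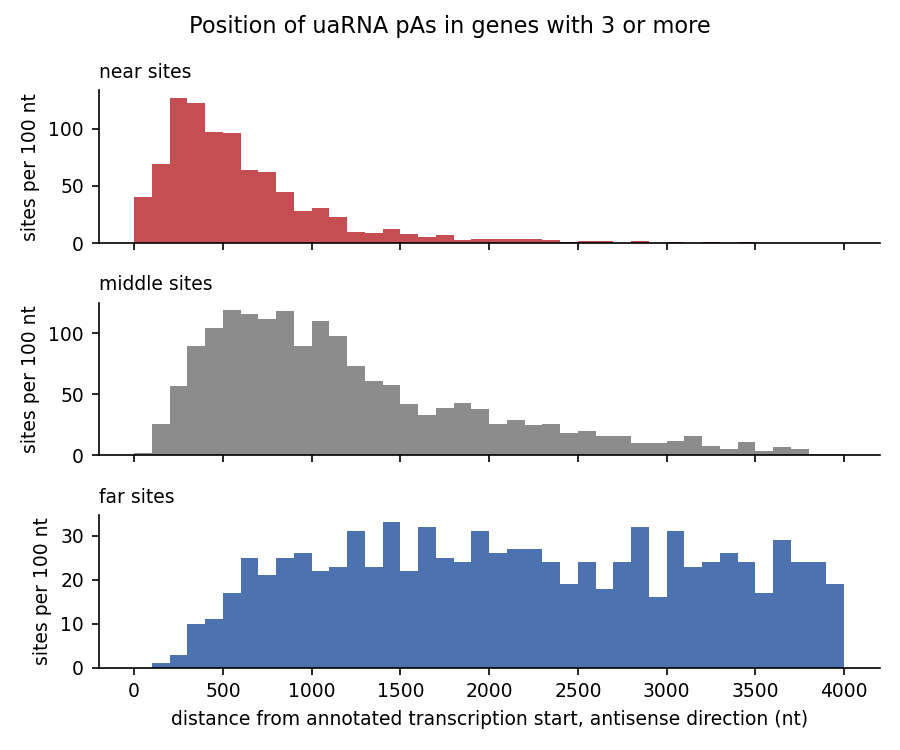
Number of uaRNA pAs per 100 nt (vertical axes, which differ in scale) against distance from the annotated TSS in nt, for near, middle and far pAs of genes with 3 or more, each within 4000 nt. Near pAs crowd below 1000 nt with a median of 493 nt, while far pAs are spread over the whole range.

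A gene could enter only if 3 pAs were detected, and genes of this kind carried more reads. They had a median of 69.5 uaRNA reads over the 6 libraries, against 21 in genes with 2 pAs and 6 in genes with 1. Most single pAs were thinly covered. The median was 8 reads at near, 9 at middle and 7 at far pAs, and 1194 of the 3556 pAs had fewer than 5 reads in all. PCR reads carry no molecular identifiers here, so intervals given for shares of reads cover counting error only.

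Poly(A) signals became more frequent from the near to the far end. AATAAA or ATTAAA stood within 40 nt before 28.4% of 908 near pAs, 34.5% of 1740 middle pAs and 59.0% of 908 far pAs. The hexamers were searched on the antisense strand only, in the orientation of the transcript, and a window with both counted once. Windows of the same length placed 200 nt further upstream held one in 0.991%, 3.85% and 5.07% of cases. The hexamer began a median of 23 nt (near) or 22 nt (far) before the cleavage position. The share was 53.3% for pAs of genes with 2 uaRNA pAs, 64.1% for genes with 1 and 53.1% for 45622 last-exon pAs, so that the near and middle pAs stood below all of these.

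**Figure D2:**
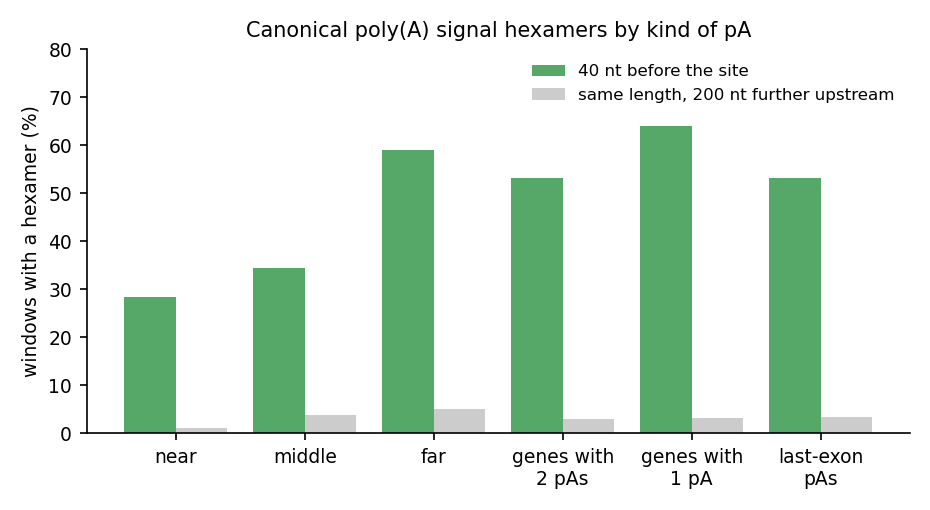
Percentage of windows with an AATAAA or ATTAAA hexamer in the 40 nt before the pA (green) and in windows of that length 200 nt further upstream (grey). The share rises from 28.4% at near to 59.0% at far pAs of genes with 3 or more uaRNA pAs, and is 64.1% where the gene has a single uaRNA pA.

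Base composition changed along the same path. Between the TSS and the near pA, over 883 genes and 535.1 kb, the antisense strand was 55.2% G and C and held 0.520 AATAAA per kb. Between the near and the far pA, over 1393 kb, it was 43.9% G and C and held 1.17 AATAAA per kb. GGTAAG, the motif searched for 5' splice sites, occurred 0.112 and 0.140 times per kb. A match to any of these strings is a description and not a site.

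uaRNA reads of these genes were scarce at 1w and 2w and frequent from 3w on. They numbered 6203, 7331, 43780, 67684, 81673 and 89072 in order of age. As a share of all reads assigned to single genes (3831545, 3497870, 3594868, 4026419, 4771294 and 5427850 reads) they made up 0.162%, 0.210%, 1.22%, 1.68%, 1.71% and 1.64%. The 3w library thus stood with the later ones in this respect, while it belongs to the 1-3w set. Of the 908 genes, 562 had a uaRNA read at 1w and 877 at 6w, and 1986 of the 3556 pAs had no read at 1w and 2w.

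One gene, Sco2, which encodes a copper chaperone of cytochrome c oxidase, took 88301 of these reads, so pooled values are given with and without it. It had 234, 272, 11752, 20538, 29163 and 26342 uaRNA reads from 1w to 6w. Its sixth pA of 8, which lay 924 nt beyond the near pA, held 94.4% to 97.0% of them in each library. The division within Sco2 was thus nearly the same at all ages, while its sum differed by 3.24 ± 1.68 on the log2 scale (SE), which was not called by edgeR (adjusted p = 0.15). This turned on the 3w library. Without 3w the sum of Sco2 was 7.61 higher with an edgeR adjusted p of 5.3e-06, 1w and 2w against 5w and 6w gave 7.82 (adjusted p = 2.2e-05), and DESeq2 called it with all libraries (3.47, adjusted p = 0.030). Without Sco2 the remaining genes held 0.156%, 0.202%, 0.891%, 1.17%, 1.10% and 1.16% of reads.

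In the whole testis, as the mix of cells changes, fewer cells of a type and less RNA per cell cannot be told apart. Over the same weeks the 6 tested of 7 spermatid markers, among them the protamine genes Prm1 and Prm2, together rose from 81.8-681.0 RPM (reads scaled to the total assigned to single genes) in the 1-3w libraries to 108699-241104 RPM at 4-6w, and all 6 were called higher. The 6 tested of 8 Sertoli cell markers fell from 1722-4347 RPM to 320-664 RPM, with 5 called lower. Spermatocyte markers (6 tested of 7) gave 1380-15435 and 6260-11073 RPM, with 1 called higher. Spermatogonial markers (4 tested of 6) gave 840-2599 and 177-374 RPM, with 2 of the tested genes called lower. Gfra1, listed but not tested, went the other way, with 0, 0, 0, 4, 12 and 18 reads from 1w to 6w. Zbtb16, also not tested, fell, with 59, 34, 9, 2, 0 and 0 reads. The RPM values add up all listed genes present in the data, tested or not. Leydig cell markers (4 tested of 5) gave 451-567 and 286-566 RPM, with 1 called higher. The list for blood, immune, vascular and peritubular cells (4 tested of 8) gave 614-1275 and 112-246 RPM, with 3 called lower. These calls used edgeR's TMM scaling, which differs from that of the RPM values. With the study's read totals instead, Leydig markers gave 0 higher and 1 lower and spermatocyte markers 0 and 0. All 6 spermatid markers stayed higher, and the Sertoli, spermatogonial and blood to peritubular lists gave 6, 4 and 4 lower. The part that the changing mix of cells has in the results below was not tested.

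Averaged over genes, a larger share of the reads lay near the promoter in the later libraries. The direction turned when the reads of the 162 genes averaged, Sco2 included, were added up, but not with all 908 genes. To follow the same genes in every library, 162 members with at least 5 uaRNA reads in each one were used. The near pA took, on average over these genes, 15.4%, 15.0%, 18.4%, 22.9%, 25.2% and 27.3% of a gene's uaRNA reads from 1w to 6w. The far pA took 34.5%, 33.4%, 29.8%, 23.4%, 22.2% and 18.6%. Middle pAs held 50.1% to 54.1% throughout. Neither the near nor the far shares of the sets overlapped. This mean over genes was chosen after the data had been seen. With the reads of the same 162 genes added up, so that genes with many reads weigh most, the near share was lower at 4-6w, 8.0% against 11.1% at 1-3w (-3.10 points), and without Sco2 it was 15.5% against 13.0%, with exact permutation p = 0.4 and 0.2.

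The near share averaged 16.3% ± 1.87 (SD, n = 3 libraries) at 1-3w and 25.1% ± 2.21 at 4-6w, a difference of 8.84 percentage points, and the far share 32.6% ± 2.45 and 21.4% ± 2.47. The two-sided exact permutation test gave p = 0.1 for both, the smallest value that 3 libraries against 3 allow. A gene with few reads can show a near share of 0%, and the part of this in the median over genes was not tested. That median was 0%, 0%, 3.34%, 6.07%, 9.92% and 12.7% for the near pA, with an exact permutation p = 0.1 as well. These genes had a median of 12 uaRNA reads at 1w and 40 at 6w.

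The read-weighted distance, that is the mean distance from the near pA of a gene's uaRNA reads, was shorter in the later libraries. Its median over the 162 genes was 623, 616, 564, 421, 370 and 356 nt from 1w to 6w. All later libraries lay below all earlier ones, 382 ± 34.3 nt (SD, n = 3) against 601 ± 32.2 nt, with p = 0.1 by the exact permutation test. For this median the step from 3w to 4w was the widest between neighbouring weeks. The mean over genes was 859, 857, 745, 636, 600 and 546 nt, and its step from 2w to 3w was slightly wider than that from 3w to 4w.

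**Figure D3:**
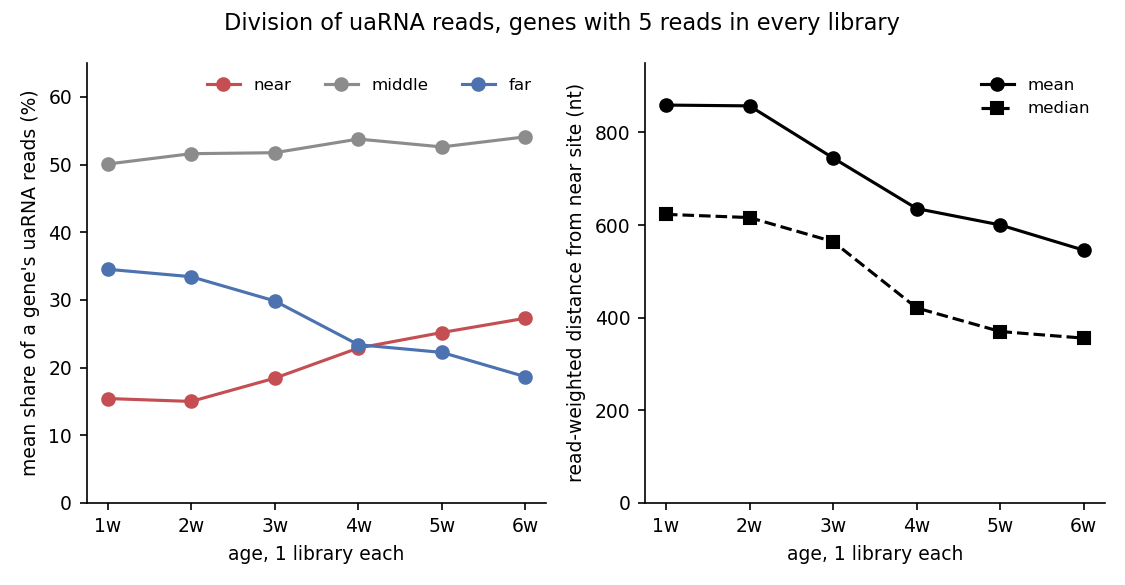
Left, mean percentage of a gene's uaRNA reads at its near, middle and far pAs, and right, read-weighted distance from the near pA in nt (mean and median over genes), by age, for 162 genes with at least 5 uaRNA reads in every library and 1 library per point. From 1w to 6w the near share goes from 15.4% to 27.3%, the far share from 34.5% to 18.6% and the median distance from 623 to 356 nt.

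Genes with exactly 2 uaRNA pAs differed between the sets in the same direction. Over 79 such genes the mean near share was 44.9%, 48.4%, 54.5%, 58.0%, 61.2% and 59.1% from 1w to 6w, 49.3% ± 4.85 against 59.5% ± 1.64 (SD, n = 3) with an exact permutation p = 0.1. Whether their difference departs from that of the members was not tested. Among the genes with 3 or more, 145 without a pA in an annotated antisense gene gave 15.3% at 1w and 26.5% at 6w.

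When the reads of all 908 genes were added up, far pAs held a smaller and middle pAs a larger share from 3w on. Far pAs held 39.1%, 38.2%, 11.9%, 9.05%, 7.89% and 8.0% of reads from 1w to 6w, with 95% Wilson intervals of 37.9-40.3% at 1w and 7.82-8.18% at 6w. Near pAs held 16.3%, 13.6%, 10.3%, 12.4%, 12.9% and 16.0%, and middle pAs held 44.6% at 1w and 76.0% at 6w. The mean near share was nearly equal in the sets, 13.4% at 1-3w and 13.8% at 4-6w (0.35 points higher). Without Sco2 the far share ran 40.6%, 39.6%, 16.2%, 12.9%, 12.2% and 11.3% and the near share 16.9%, 14.2%, 14.1%, 17.8%, 20.1% and 22.7%. A near share above that of 1w at 6w thus appeared in the pooled reads once this gene was set aside.

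The pA with most reads of its gene was also more often a near one in later libraries. At 1w it was the near pA in 21, a middle pA in 71 and the far pA in 57 of 149 genes with at least 10 uaRNA reads. At 6w these numbers were 182, 305 and 96 of 583 genes. Since the genes with enough reads differ between libraries, the sets were also compared gene by gene. Of 506 genes with at least 10 reads in both sets and a single leading pA in each, 398 kept the same pA, 93 had a leading pA nearer to the promoter at 4-6w and 15 one farther away.

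Most genes thus kept their leading site. Of 246 genes with at least 30 uaRNA reads in each set, 193 had near shares within 10 percentage points of each other, 48 were higher by more at 4-6w and 5 lower by more. The mean difference was 5.60 points with an SD of 11.7 over genes, which are not replicates. Between neighbouring weeks, among genes with at least 20 reads in both, the near share was higher by 20 points or more in 13 of 236 genes and lower by as much in 2 when 4w was set against 3w. From 2w to 3w these numbers were 1 and 0 of 66 genes.

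The ratio of near reads to reads beyond the near pA was tested in each gene by edgeR's quasi-likelihood test with a term for each library, which leaves out changes in the total. Of all 864 genes with 2 or more uaRNA pAs and at least 10 uaRNA reads in each set, 6.94% were called higher and 0.81% lower at 4-6w at a Benjamini-Hochberg adjusted p of 0.05. Of the 528 tested members, 38 were higher (7.2%) and 3 lower (0.568%), a share close to this background. Genes with 2 pAs gave 6.55% and 1.19% of 336. All 38 members kept their direction in each fit without 1 library that could include them, but the count was 16, 11, 22, 36, 16 and 13 when 1w to 6w were left out in turn. Only 5 genes, Brpf3, Cul1, Gabarapl1, Tgif1 and Zpbp, were called in all 6 of these fits. With DESeq2, 8 were called higher and 1 lower.

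**Figure D4:**
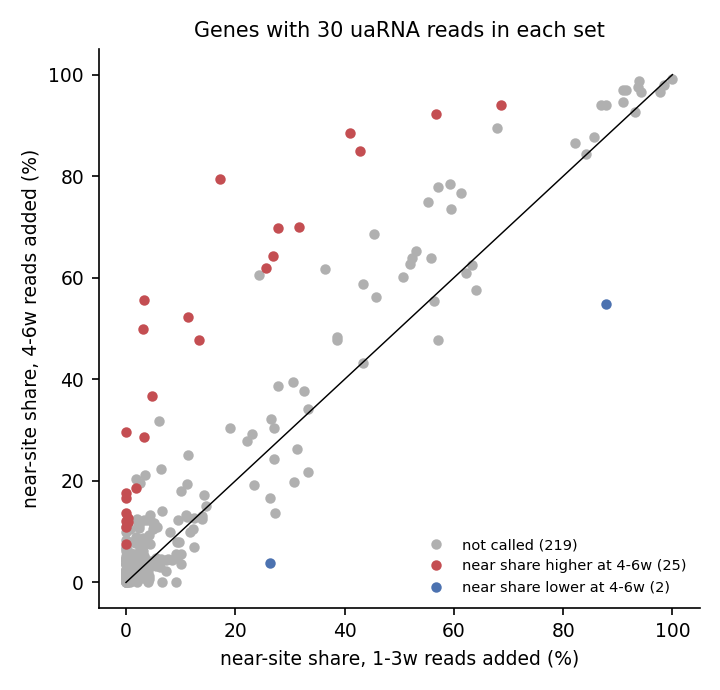
Near-site share of uaRNA reads at 4-6w against that at 1-3w, in percent with the reads of the 3 libraries added, for 246 genes with at least 30 uaRNA reads in each set. Red points are the 25 of them called higher and blue points the 2 called lower by edgeR's test of the near-site ratio, grey points the 219 not called, and the line marks equal shares.

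Gabarapl1, which encodes an Atg8-family protein of autophagosomes, had 3, 4, 31, 342, 494 and 937 reads at its near pA from 1w to 6w and 4, 3, 22, 30, 40 and 81 beyond it. The near share was 42.9% to 58.5% in the earlier and 91.9% to 92.5% in the later libraries, which did not overlap. The ratio rose by 3.22 ± 0.61 on the log2 scale (SE), with an adjusted p of 3.0e-05 by edgeR's quasi-likelihood test. The near pA lay 699 nt from the TSS inside the annotated antisense-strand gene 1700101I11Rik, and the last-exon reads of Gabarapl1 itself rose too, by 3.33 on the log2 scale with an edgeR adjusted p of 0.0083.

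Kdm3a encodes a histone H3 lysine demethylase needed for spermatid chromatin condensation. Its near pA, 270 nt from the TSS, had 0, 0, 3, 37, 107 and 124 reads, while the pAs beyond it had 2, 1, 11, 8, 9 and 16. At 1w and 2w every read lay at the far pA, but these were 3 reads in all. The share over added reads was 17.6% of 17 reads at 1-3w and 89.0% of 301 at 4-6w, and the ratio rose by 5.17 ± 1.08 on the log2 scale with an edgeR adjusted p of 0.00016.

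Zpbp encodes a zona pellucida binding protein of the acrosome. Its near pA had 1, 1, 4, 16, 15 and 31 reads and its far pA 13, 8, 7, 1, 6 and 8. Here the leading site was the far pA up to 3w and the near pA from 4w on, with 9 to 40 reads per library. The edgeR adjusted p of the ratio was 0.00041. All 3 pAs lay inside the annotated antisense-strand gene 4930415F15Rik.

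Brpf3, which encodes a subunit of histone acetyltransferase complexes, also had more near and fewer other reads at 4-6w. It had no annotated gene on the antisense strand. Unlike in Zpbp, the near pA already led at 3w with 14 of 22 reads, and most reads beyond it lay at the second pA. Its near pA had 4, 5, 14, 32, 31 and 44 reads, against 11, 14, 8, 4, 6 and 4 beyond it. The sets overlapped at neither place. The ratio rose by 3.46 ± 0.78 on the log2 scale (SE) with an edgeR adjusted p of 0.00061. Against the far pA alone, which had 5 reads in all, it was not called.

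Cul1, the gene of the scaffold of SCF ubiquitin ligases, changed at a low level. Its near pA, only 41 nt from the annotated TSS, had 0, 0, 1, 18, 15 and 20 reads, and the fifth pA of 6 had 55, 48, 158, 110, 107 and 78. The near share was 0.337% of 297 reads at 1-3w and 12% of 443 at 4-6w, and the fifth pA led in all 6 libraries. The edgeR adjusted p of the ratio was 3.9e-05.

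Among the other genes named by rank of adjusted p, Hsph1, an Hsp110 chaperone, moved from 42.9% to 85.0% near reads, with most other reads at its second pA and 2 reads at the far one. Its ratio turned to -0.45 against the last pA and to -1.87 at mid-span, neither of them called. Wdr20a, a gene of a WD-repeat protein, had 0, 0, 31, 32, 26 and 41 near reads and 21, 28, 19, 18, 4 and 1 far reads, so its change began at 3w. Ubxn8 had 52, 89, 64, 41, 31 and 17 reads at its far pA and 0, 0, 1, 3, 5 and 12 at its near pA. Tgif1 and Ddx17, genes of a homeobox repressor and an RNA helicase, had no near read in 118 and 115 reads at 1-3w, which allows shares of up to 2.54% and 2.61% (3 reads of the total), and 38 of 277 and 6 of 29 at 4-6w. The edgeR call was lost without 2w for Hsph1 (adjusted p = 0.092) and Wdr20a (adjusted p = 0.067), without 6w for Ubxn8 (adjusted p = 0.091), and without 2w or 6w for Ddx17 (adjusted p = 0.17 and 0.16).

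By size of the near share rather than by p, the largest rises among genes with 30 reads in each set also included Ppm1l, Tnrc6c and Clk3, which encode a protein phosphatase, a partner of Argonaute proteins and a kinase of splicing factors. Their near shares were 3.33%, 3.12% and 27.8% at 1-3w and 55.6%, 50% and 69.9% at 4-6w, with edgeR adjusted p of 0.0047, 0.014 and 0.045. The call was lost in 3 (Ppm1l) and 4 (Tnrc6c) of the 6 fits without 1 library, and in 3 of 5 for Clk3, which had too few reads for the fit without 3w. Below U2af2 and Gnai3, described next, the largest differences downwards were those of Irgq, Atp1b3, Dek and Dscr3, at 27.3%, 33.3%, 30.8% and 26.4% against 13.7%, 21.8%, 19.8% and 16.7%, and none of these 4 was called (edgeR adjusted p = 0.58, 0.65, 0.76 and 0.68).

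**Figure D5:**
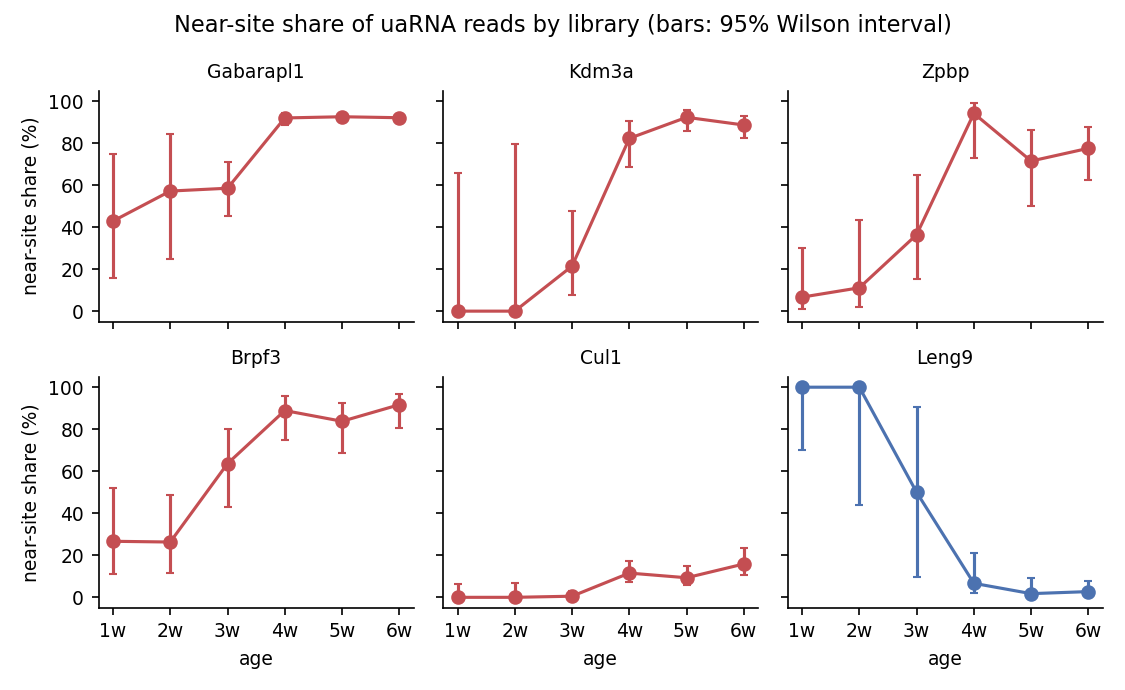
Near-site share of uaRNA reads in percent by age for 6 genes, 1 library per point, with 95% Wilson intervals from the read counts. At 6w the share is 88.6% in Kdm3a, 92.0% in Gabarapl1, 15.9% in Cul1 and 2.73% in Leng9, with wide intervals where a library holds few reads.

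The opposite change was called in 3 genes. Leng9, a gene named for a leukocyte receptor cluster, had 9, 3, 1, 2, 1 and 3 reads at its near pA and 0, 0, 1, 25, 52 and 100 at its far pA, 1624 nt further on. The earlier libraries hold 14 reads in all, and the ratio fell by 8.24 ± 1.28 on the log2 scale with an edgeR adjusted p of 1.3e-07. U2af2, the large subunit of the U2AF splicing factor, had 58, 43, 57, 36, 28 and 33 near reads and 0, 3, 17, 18, 23 and 34 far reads. Its near share declined over all 6 weeks from 100% to 47.8%, with an edgeR adjusted p of 0.00061 that became 0.071 without 1w. Gnai3, a G protein alpha subunit, fell from 26.3% of 38 to 3.82% of 157 near reads, with an edgeR adjusted p of 0.041 that was lost in 5 of the 6 fits without 1 library (all but the one without 2w), in which it was 0.070 to 0.39. Its ratio, -3.01 on the log2 scale, was -0.89 against the last pA and turned to 1.68 when pAs were divided at mid-span, neither of them called (adjusted p = 0.86 and 0.54).

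The 38 genes with a higher ratio were divided into 2 kinds by read counts not scaled to the library totals, which were larger at 4-6w. In 22 of them there were more reads at 4-6w both at the near pA and beyond it, and in 16 more at the near pA and fewer beyond it. In 12 genes (31.6%) no near read was seen at 1-3w. For all 908 near pAs the share was 33.4%, but these include genes with too few reads for the test. The 2 shares therefore cannot be set against each other. In 20 the near pA held over 50% of the reads at 4-6w. Over 769 members with at least 10 reads at 4-6w and a single leading pA, the near pA led in 244 (31.7%). That is a related measure over a wider set. The division into 2 kinds was not counted over all tested members. A hexamer stood before 12 of the 38 near pAs (31.6%) and 29 of the 38 far pAs (76.3%), beside 28.4% of near and 59.0% of far pAs of all members. The uaRNA sum of 35 of these genes could be tested as well, and 21 were called higher by edgeR at an adjusted p of 0.05, where 39.6% of all uaRNA sums tested were.

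Sites with a hexamer held a smaller share in later libraries. Hexamers stood before 28.4% of near and 59.0% of far pAs of all members. The share is therefore not independent of the division between near and far pAs described above. Over the 162 genes the mean share of reads at pAs with a hexamer was 62.4%, 59.9%, 57.2%, 53.9%, 52.3% and 50.7% from 1w to 6w, 59.8% ± 2.59 against 52.3% ± 1.63 (SD, n = 3) with an exact permutation p = 0.1. In the pooled reads of all members it was 61.7%, 58.5%, 35.6%, 34.0%, 31.1% and 34.1% from 1w to 6w. Without Sco2 it was 64.1% and 60.8% at 1w and 2w and 48.4% to 48.8% from 3w to 6w.

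In most of the 12 genes with most reads a single middle pA led in every library. In Btbd9 the third pA of 7, 983 nt from the TSS, held 93.9% to 100% of the reads in each library. In Mipep, a mitochondrial peptidase gene, the third pA of 4 held 98.0% to 100%, and near reads were 0, 0, 2, 13, 20 and 36. Nfrkb, a subunit of the INO80 complex, divided its reads between pAs 169 and 205 nt beyond the near one, with 57.9% to 69.2% at the farther of them. The ratio test called none of these 3 (edgeR adjusted p = 0.50, 0.38 and 0.58). When pAs were divided at mid-span, Btbd9 was called higher (2.69 on the log2 scale, edgeR adjusted p = 0.038), and Mipep and Nfrkb were not.

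Zc3h7a and Siah1a, a zinc finger gene and a ubiquitin ligase gene, differed between ages in their middle pAs, which the ratio of near to other reads does not see. In Zc3h7a the third pA held 6.21%, 12.4%, 15.4% and 23.3% from 3w to 6w, and the seventh 92.7% at 3w and 75.5% at 6w. In Siah1a the second pA held 77.3% at 3w and 95.3% at 6w and the third 22.0% and 4.66%. The near pA of Siah1a had 2 reads in all, and when sites with fewer than 5 reads were dropped, its second pA took the place of the near one and the ratio was called higher (2.28 on the log2 scale, edgeR adjusted p = 0.00066). The difference between the middle pAs of Zc3h7a was not tested. In Zc3h6 the near pA held 10.5% to 18.2% in all libraries and its neighbour 25 nt on held 59.8% to 79.0%. Its ratio was not called (edgeR adjusted p = 0.64), but against the last pA it was called higher (2.00 on the log2 scale, edgeR adjusted p = 0.029). Divided at mid-span it was 1.85 and not called (edgeR adjusted p = 0.065).

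A430005L14Rik and Herc4, the latter a HERC-type ubiquitin ligase gene, had few reads on this strand before 4w. A430005L14Rik had 3, 2, 4, 670, 1281 and 1962 uaRNA reads and Herc4 3, 0, 11, 417, 852 and 1325. Both sums were called higher by edgeR, with adjusted p of 0.0076 and 0.012, which became 0.052 and 0.062 without 5w and, for Herc4, 0.061 without 6w. In both a middle pA took most of the 4-6w reads, 99.6% to 100% in A430005L14Rik and 87.1% to 91.4% in Herc4. The remaining genes of the 12 with most reads, Setd2, Rbm26 and Limd2, had near shares of at most 4.44% in either set. Divided at mid-span, the ratio of Setd2 was called higher (2.36 on the log2 scale, edgeR adjusted p = 0.047). Those of Rbm26 and Limd2 were not (edgeR adjusted p = 0.75 and 0.052).

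Over all uaRNA sums that passed edgeR's filter, 39.6% of 1063 were called higher and 2.16% lower at 4-6w, against 15.9% and 25.1% of 11263 last-exon sums. Of the 497 members among them, 198 were higher (39.8%) and 14 lower (2.82%), which is again the background share. Genes with 2 uaRNA pAs gave 40.3% and 1.83% of 273, and genes with 1 gave 38.6% and 1.37% of 293. Since a gene could pass the filter through its later libraries alone, these are not counts over all members. The median change of the tested members was 2.57 on the log2 scale, where last-exon sums had a median of -0.20. With the totals of the study in place of TMM the last-exon median was -1.38 and that of the members 1.5. Without 3w the median of the members was 4.96, and with 1w and 2w against 5w and 6w it was 5.17. The count depended on the libraries, with 104 higher without 2w, 498 without 3w, 0 without 5w (212 at an unadjusted p under 0.05) and 25 without 6w. DESeq2 called 274 higher with all libraries.

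The 14 members that fell included Gli3 with 73, 39, 10, 2, 1 and 2 reads and Hdac8 with 78, 122, 41, 16, 7 and 4, a transcription factor of hedgehog signalling and a histone deacetylase, both picked after their values had been seen. Of the 198 that rose, 167 had a tested last-exon sum. This sum was called higher in 54 and lower in 19, and 94 were not called. Over all members with a tested last-exon sum it was called higher in 144 and lower in 138 of 733, beside the 15.9% and 25.1% of all genes.

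Single pAs were tested alongside, and 37.7% of 1035 uaRNA pAs that passed the filter were called higher and 1.45% lower. For the members these shares were 51.3% of 117 near pAs, 33.4% of 287 middle pAs and 24.7% of 89 far pAs higher, and 0.855%, 0.348% and 6.74% lower. Their median log2 changes were 3.43, 2.80 and 1.68. A pA could pass the filter through its later libraries alone, so these are not shares of all member pAs. In place of 178 member pAs called higher, the fit without 5w gave 0 (197 at an unadjusted p under 0.05) and that without 6w gave 24, while that without 3w gave 542. Of all member pAs, 303 of 908 near pAs (33.4%), 434 of 1740 middle pAs (24.9%) and 195 of 908 far pAs (21.5%) had no read at 1-3w, while 51, 90 and 86 had none at 4-6w.

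The genes that act on uaRNAs were followed through their last-exon reads, against 15.9% of all genes called higher and 25.1% lower. Of 21 tested genes of the nuclear exosome and its adaptors, 4 were higher and 2 lower, with a median of -0.10 on the log2 scale. The exosome subunit Exosc3 rose by 2.73 on the log2 scale, and Zcchc8 and Rbm7, the partners in the NEXT adaptor complex, by 2.81 and 2.86, with edgeR adjusted p of 0.0090, 0.0082 and 0.010. The catalytic subunit Dis3 rose by 1.17, but was at -0.07 and not called when scaled to the study's totals. Exosc7 and Zc3h18 were lower by the same test (Exosc7 was not called with DESeq2 size factors). Zc3h18 is itself a member, and its near share went from 1.89% to 18.5%. A rise was the usual direction, since 380 of the 528 members tested for the ratio had a higher near share at 4-6w and 147 a lower one. Whether the near share of Zc3h18 is linked to its lower last-exon reads was not tested.

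Of the 3 U1 snRNP protein genes edgeR called 0, with 1 at an unadjusted p under 0.05 and a median of -0.30. DESeq2 called 1 of them higher, and with the study's totals edgeR called 2 lower. Of 11 tested Integrator genes, whose complex cleaves short transcripts near promoters, 1 was higher and 4 were lower with a median of -0.66. With the study's totals the exosome list gave 3 higher and 12 lower and the Integrator list 0 and 9, where the median of all last-exon sums was itself -1.38.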

How the data were processed

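3'READS libraries of testes at 6 ages were analysed, 1 library per week. Per the labels and methods, the authors mapped reads to mm9 with Bowtie2 (version not given in the sources used here), kept poly(A) site-supporting reads with at least 2 unaligned Ts and merged pAs within 24 nt. The deposited values are raw counts of such reads per pA, with no normalization. Internal priming is limited by the capture, and 0.506% of member pAs had 6 As in the next 10 nt. The members and lists were chosen with earlier results of these data known. Of 9048 upstream antisense rows, 256 were listed more than once and left out.

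Counts were tested with edgeR 4.0.16 (quasi-likelihood, Benjamini-Hochberg over all features fitted, threshold 0.05), with DESeq2 1.42.0 as an alternative, in R 4.3.3. Near-site ratios used 2 columns and 1 term per library. Sums and single pAs were fitted beside 16197 last-exon sums with TMM scaling and edgeR's filter. SEs were derived from the change and its F statistic. On simulated counts the ratio test recovered 4% of log2 changes of 2 and 45.6% of changes of 4 with 0% of its 34 calls false, and the sum test 46.0% and 100% with 2.84% false. The simulated libraries of a set shared 1 mean per gene and a fixed spread, with no trend over age. The real libraries of a set differ in age, so these rates cannot be carried over to them. Shares over libraries were compared by a two-sided exact permutation test (scipy 1.17.1). TSS positions and annotated genes came from GENCODE vM1, matched by symbol, and sequences from the same mm9 assembly with pysam 0.24.0. Windows printed were moved to end 6 nt before the pA after it was seen that hexamers were cut off. Genes were named by rule as the 12 with most reads, up to 10 called by the ratio test in each direction, the 6 largest rises and falls of the near share with 30 reads in each set, those with the most pAs, and the 2 widest and narrowest spans. Alternatives left out each library, compared 1w and 2w with 5w and 6w, and changed the read minimum, the scaling, the filter, the division of sites and the tool.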

Additional observations from a re-analysis of the deposited data

Results flagged for a closer look

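Antisense pAs that the table lists more than once, under more than 1 gene, were left out of every comparison but carry reads. The 175 distinct pAs held 13411 reads in all, 576, 904, 2742, 2962, 3040 and 3187 from 1w to 6w, with the widest step between 2w and 3w. They are noted because they lie outside the main measurement, and their gene cannot be told from the table.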

How the results depend on the processing

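Each setting was changed alone, and counts below are of members called higher and lower by edgeR unless DESeq2 is named. For the near-site ratio (38 and 3), fits without 1 library gave 11 to 36 and 0 to 3, the 0 being the fit without 1w with 5 lower at an unadjusted p under 0.05. 1w and 2w against 5w and 6w gave 25 higher, a minimum of 30 reads 10 and 0 (4 lower unadjusted), a minimum of 1 read 24, sites with at least 5 reads 58 and 5, and DESeq2 8 and 1. For uaRNA sums (198 and 14), fits without 1 library gave 0 to 498 and 0 to 24, 1w and 2w against 5w and 6w 462 and 26, DESeq2 size factors 9 lower and the study's totals 28 lower. For single pAs (178 and 8), fits without 1 library gave 0 to 542 and 0 to 25, with 197 higher at an unadjusted p under 0.05 without 5w. 1w and 2w against 5w and 6w gave 483 and 30, DESeq2 size factors 5 lower, the study's totals 22 lower, no filter 518 higher and DESeq2 280 higher. The difference in the median near share, 8.45 points, was 7.44 to 10.2 without 1 library, 5.57 with a minimum of 10 reads and 11.4 with 1w and 2w against 5w and 6w, and that in median distance, -219 nt, was -238 to -186 nt. With the reads of the 162 genes added up, the near share was lower at 4-6w by 3.10 points (-3.10), and without Sco2, an alternative chosen after seeing the data as was the mean over genes, it was 2.47 points higher. The ratio of Hsph1 turned to -0.45 against the last pA and to -1.87 when pAs were divided at mid-span, and that of Gnai3 to 1.68 at mid-span, with none of the 3 called. The cause of these changes was not tested, apart from fewer genes or libraries where the setting removes them. No paired analysis was possible because the labels carry no replicate numbers. At 6203 reads at 1w and 7331 at 2w over 908 genes, single genes often hold a few reads per library, so small shifts before 3w were not detectable at this depth.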

Other observations

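The span between the near and far pA showed 2 members that stand apart. Ankhd1 and Cecr2 had pAs 85895 and 69622 nt apart, where the other genes but 1 stayed below 4000 nt. Ankhd1 had 0, 0, 1, 7, 16 and 29 near reads and 5, 4, 3, 5, 8 and 8 beyond, with an edgeR adjusted p of 0.018 for the ratio that became 0.082 without 5w and 0.097 without 6w. Cecr2 had 15 uaRNA reads in all and was not tested. Acr and Kif23 had the narrowest spans, 63 and 66 nt. In Acr the near pA held 5 of 301 reads at 4-6w, and in Kif23, a kinesin of the midbody, it held 30 of 32.

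Dlgap2, with 16 uaRNA pAs, had 3, 0, 153, 262, 277 and 386 uaRNA reads from 1w to 6w and 0 or 1 last-exon reads in each library. Its ninth pA led with 35.2% to 38.6% of reads from 3w to 6w, and the fourth rose from 15.7% at 3w to 24.1% at 6w.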
